A study of Mus musculus with 6 samples.

Results

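The genes described here are the 276 protein-coding genes of 12979 measured in mouse embryonic stem cells (2.13%) whose escaping index was higher in all 4 Mettl3 knockout libraries than in either control library. The index is a log2 ratio within a transcript from mNET-seq, an assay of the short nascent RNA that stays with RNA polymerase II when chromatin is cut with micrococcal nuclease. Each gene was represented by its protein-coding transcript with the largest genomic span in GENCODE release M21, and it was a member if the lowest of 4 knockout values lay above the higher of 2 control values. Of the other genes, 5874 (45.3%) had all 4 knockout values below both controls, and the remainder had groups that overlapped. The samples were 2 libraries of a first knockout (KO1), 2 of a second (KO2) and 2 of control cells, all C57BL/6 embryonic stem cells in serum medium with LIF and the inhibitors CHIR99021 (of GSK3) and PD0325901 (of MEK), and the polymerase was precipitated with a mouse antibody. The labels do not say how either knockout was made, whether KO1 and KO2 are single clones, or whether replicates were separate cultures, so the spread between them may be technical.

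Mettl3 encodes the methyltransferase that adds N6-methyladenosine (m6A) to nascent RNA. RNA polymerase II pauses shortly after the start of most genes, and it then either moves on into the gene or is released early. An index of downstream over start-proximal signal is one way to describe how much polymerase gets past that point. The control index was larger for longer genes (Pearson's r = 0.689 and Spearman's rho = 0.682 with log10 span across 12979 genes that share the same 2 libraries). The sources used here do not give the windows of the ratio, and a higher value is read as more downstream signal from the name of the index and this relation. A higher ratio can come from more downstream signal or from less signal at the start, and these cannot be told apart in a ratio.

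The promoters of a few leading members are shown because the start is the region against which the downstream signal is measured. They belong to the 4 members with the largest margins for which RefSeq has a start under the same symbol within 100 bases of the chosen transcript's start. Each runs 5′ to 3′ from 250 bases before to 50 bases after the RefSeq start (GRCm38.p6), and the capitals mark the 50 transcribed bases. Spaca9 lies at chr2:28699602-28699901, Zfp300 at chrX:21089180-21089479, Mkrn3 at chr7:62420104-62420403 and Zfp791 at chr8:85119642-85119941, all on the minus strand.
Spaca9: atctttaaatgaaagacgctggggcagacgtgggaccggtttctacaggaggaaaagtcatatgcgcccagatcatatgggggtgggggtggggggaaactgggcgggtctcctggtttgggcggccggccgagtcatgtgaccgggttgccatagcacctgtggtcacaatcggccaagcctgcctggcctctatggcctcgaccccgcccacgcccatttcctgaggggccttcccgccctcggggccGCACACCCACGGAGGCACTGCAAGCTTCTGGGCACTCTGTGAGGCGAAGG
Zfp300: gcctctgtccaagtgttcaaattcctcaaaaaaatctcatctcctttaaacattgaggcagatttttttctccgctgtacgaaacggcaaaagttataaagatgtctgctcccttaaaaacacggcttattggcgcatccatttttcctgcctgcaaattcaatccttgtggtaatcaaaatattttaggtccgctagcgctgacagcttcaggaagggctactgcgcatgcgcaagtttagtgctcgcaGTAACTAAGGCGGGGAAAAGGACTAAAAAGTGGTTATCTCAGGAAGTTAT
Mkrn3: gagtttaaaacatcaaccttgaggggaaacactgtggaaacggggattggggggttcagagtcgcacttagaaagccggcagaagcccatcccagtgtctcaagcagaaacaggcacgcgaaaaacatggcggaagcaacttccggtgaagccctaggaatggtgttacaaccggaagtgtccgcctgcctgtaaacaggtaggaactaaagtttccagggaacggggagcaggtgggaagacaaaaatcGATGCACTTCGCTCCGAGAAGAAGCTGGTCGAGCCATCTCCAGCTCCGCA
Zfp791: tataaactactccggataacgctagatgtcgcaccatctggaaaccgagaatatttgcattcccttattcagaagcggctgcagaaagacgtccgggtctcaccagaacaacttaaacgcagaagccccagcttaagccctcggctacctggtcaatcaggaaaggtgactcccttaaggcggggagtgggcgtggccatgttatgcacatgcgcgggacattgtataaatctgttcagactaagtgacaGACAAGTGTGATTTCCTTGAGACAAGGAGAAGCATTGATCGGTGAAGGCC

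The Spaca9 window was 63.3% G+C with 18 CpG dinucleotides and held 4 matches to GGGCGG, the core of the GC box, and none to TATAAA on either strand. The Zfp791 window was 49.7% G+C and held 2 TATAAA matches, the nearer 26 bases before the RefSeq start, and none to GGGCGG. That RefSeq start lies 54 bases from the start of the chosen Zfp791 transcript. The Zfp300 window was 42.7% G+C with its TATAAA match 156 bases before the start, and the Mkrn3 window, at 53.3%, held neither motif. Over the 129 members with such a start, TATAAA was found in 10.9% and GGGCGG in 49.6% of windows, against 6.20% and 69.1% of the 8297 coding genes with such a start. Of all 32851 RefSeq windows of this length, 13.6% held TATAAA and 35.7% held GGGCGG.

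Replicate libraries correlated across coding genes at r = 0.975 in KO1, 0.977 in KO2 and 0.969 in control, and no pair held identical values. The median over all coding genes was 4.41 and 4.42 in KO1, 4.24 and 4.23 in KO2, and 4.78 and 4.80 in control, so the genes with a higher index ran against the general direction. Mettl3 had an index of 2.44 and 2.42 in KO1, 2.104 and 2.30 in KO2, and 2.69 and 2.46 in control, which says nothing about whether its protein was lost. All 9 stem cell markers looked for and 4 of 8 feeder fibroblast markers were in the table (Col1a2, Col3a1, Postn and Dcn had no coding transcript there), and none of those listed was a member. The index is not an RNA level, so it does not measure how strongly a marker is expressed.

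If the 6 libraries were exchangeable, 1 of the 15 ways to pick 2 controls would meet the rule, which is 6.67% or 865 genes, so the 276 genes found are fewer than that figure, and the 5874 genes on the other side are more. The share of genes with a higher index depended on the scale. With each library centred on its median, 1960 genes (15.1%) lay above both controls in all 4 knockout libraries and 2022 (15.6%) lay below, and all 276 members were among those above. Both KO1 values lay above both controls in 1110 genes (8.55%), and both KO2 values did in 648 (4.99%); these counts share the control libraries. Without Control replicate 1 the rule gave 761 genes, without Control replicate 2 it gave 773 and without KO2 replicate 1 it gave 423, since it has fewer values to meet.

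**Figure D1:**
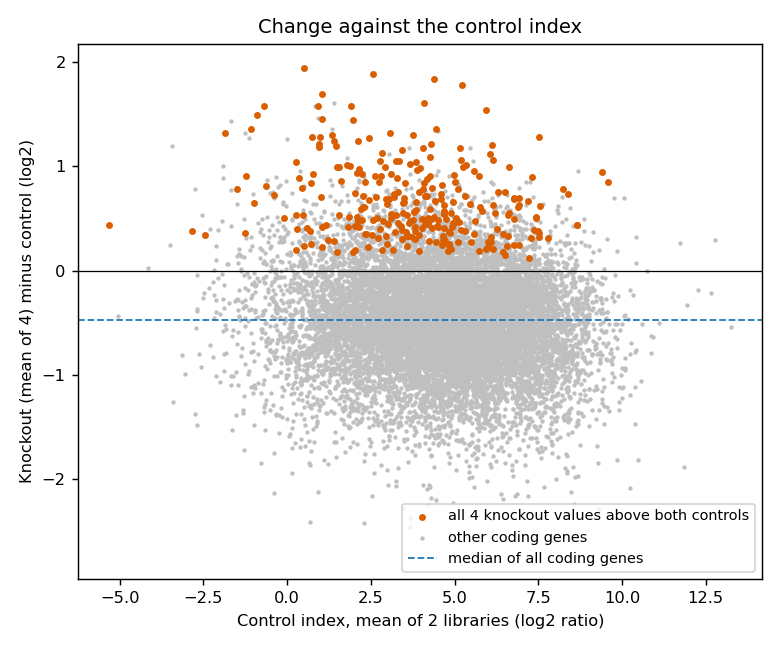
Mean of the 4 knockout libraries minus the mean of the 2 control libraries (log2, vertical) against the mean control index (log2 ratio, horizontal) for 12979 coding genes, with the 276 members in orange. The members lie between 0.12 and 1.94 above control, while the dashed median of all coding genes is at -0.47.

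The values that chose the members are given here as a description. Across the 276, the average of both knockouts minus control had a median of 0.55 on the log2 scale, a ratio 1.46 times that of control, with quartiles of 0.38 and 0.89. The median over all coding genes was -0.47, a ratio 0.722 times that of control. The members' median was 0.56 in KO1 against control and 0.54 in KO2 against control. These medians do not mean that the knockouts agreed gene by gene. In 80 of the 276 members the larger of the KO1 and KO2 differences was more than double the smaller. The same held for 603 of 12979 coding genes, counting only genes above control in both knockouts. Member by member, the median index was 4.41 and 4.40 in the KO1 libraries, 4.42 and 4.44 in KO2, and 3.84 and 3.81 in control, so in the knockouts the members sat near the median of all coding genes in KO1 and above it in KO2. In 45 members (16.3%) the margin between the lowest knockout and the higher control value was larger than the widest gap between replicates of a group, and in 231 it was not. The matching margin exceeded that gap in 2504 of the 5874 genes (42.6%) with all 4 knockout values below both controls.

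The largest margin belonged to Tekt1 (chr11:72344729-72362442, minus strand, 8 exons), a tektin that builds the microtubule doublets of cilia and sperm tails. Its index was 5.39 and 6.15 in KO1, 5.33 and 5.90 in KO2, and 4.05 and 4.13 in control. The difference was 1.60, and its margin of 1.20 exceeded its widest replicate gap of 0.76. Plec (chr15:76170974-76231378, minus strand), which encodes plectin, the large linker between intermediate filaments and other cytoskeletal fibres, had 6.17 and 6.89 in KO1, 6.17 and 5.58 in KO2, and 4.17 and 4.57 in control. The Plec transcript overlaps Parp10 and 2 small RNA genes, so its values may include their reads. Spaca9 (chr2:28692080-28699651, minus strand), a protein of the sperm acrosome and flagellum, had 2.06 and 2.79 in KO1, 2.83 and 2.29 in KO2, and 1.29 and 0.78 in control. Its control values were low and its replicates were nearly as far apart as its margin.

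Tsga10ip (chr19:5390049-5394401, minus strand), named as a partner of a testis-specific protein, had 2.97 and 2.63 in KO1, 2.59 and 2.39 in KO2, and 1.55 and 1.36 in control. Prdm9 (chr17:15543079-15563323, minus strand), the histone methyltransferase that places meiotic recombination hotspots, had 4.19 and 3.77 in KO1, 3.91 and 3.74 in KO2, and 3.05 and 2.76 in control. In both genes all 4 knockout values were closer to each other than to the control mean. Acsbg2 (chr17:56843103-56874447), an acyl-CoA synthetase, had 7.25 and 6.11 in KO1, 8.09 and 6.50 in KO2, and 5.40 and 5.02 in control, with a replicate gap of 1.59 that exceeded its margin of 0.72.

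**Figure D2:**
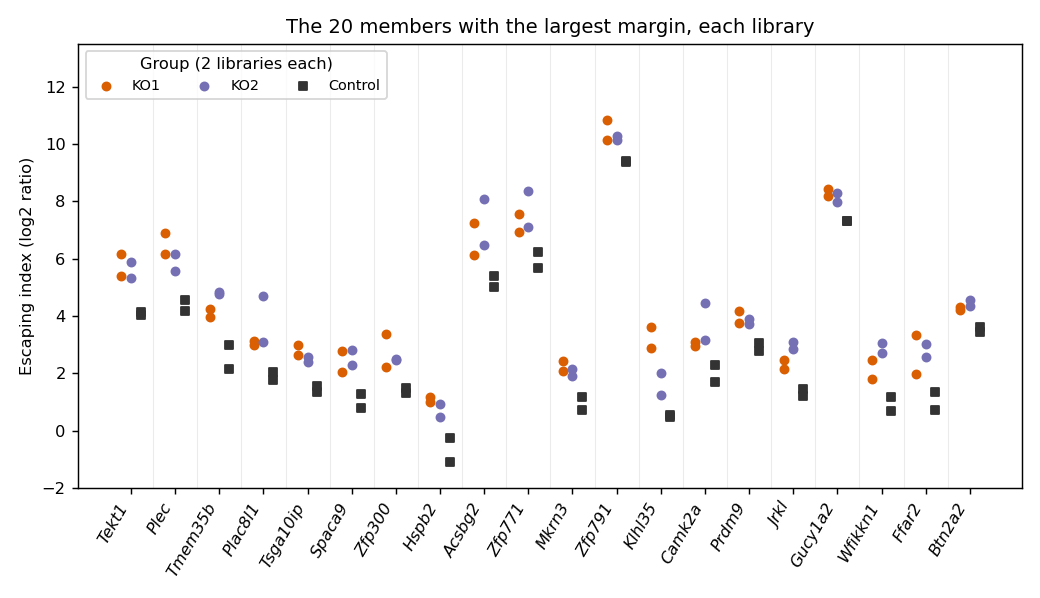
Escaping index (log2 ratio) in every library for the 20 members with the largest margin, in order from the left, with KO1 and KO2 as circles and control as squares. Tekt1 has the widest separation, Gucy1a2 and Btn2a2 have small replicate gaps, and Acsbg2 and Zfp771 have wide ones.

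Short single-exon genes and long genes were both among the leading 20. Jrkl (chr9:13242607-13245829, minus strand, 1 exon), related to a transposase, had 2.14 and 2.45 in KO1, 2.83 and 3.10 in KO2, and 1.20 and 1.47 in control. Mkrn3 (chr7:62417593-62420139, minus strand, 1 exon), an imprinted ubiquitin ligase linked to the timing of puberty, had 2.097 and 2.43 in KO1, 2.14 and 1.89 in KO2, and 1.18 and 0.72 in control. The margins of both genes exceeded their own replicate gaps. Mkrn3 overlaps Gm32061 on the same strand, so its values may include those reads. Gucy1a2 (chr9:3532778-3894736, plus strand), a subunit of the nitric oxide receptor guanylate cyclase, spans 361959 bases and had 8.18 and 8.43 in KO1, 8.29 and 8.00 in KO2, and 7.33 and 7.32 in control. Btn2a2 (chr13:23477676-23488857, minus strand), a butyrophilin of the immunoglobulin family, had 4.33 and 4.22 in KO1, 4.36 and 4.57 in KO2, and 3.61 and 3.45 in control, with no replicate gap over 0.21.

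Zfp300 (chrX:21079174-21089229, minus strand), a zinc finger protein, had 3.36 and 2.23 in KO1, 2.46 and 2.50 in KO2, and 1.31 and 1.49 in control. Plac8l1, of the Plac8 family, had 3.14 and 3.00 in KO1, 4.70 and 3.09 in KO2, and 1.76 and 2.05 in control. In both genes a single library stood above the other 3 knockout libraries. Tmem35b, a membrane protein, differed by 1.88 and overlaps Zmym6, Hspb2, a small heat shock protein, differed by 1.58 and overlaps its neighbour Cryab, and Zfp771 (1.53), Wfikkn1, a secreted protein with protease-inhibitor domains (1.58), and Ffar2, a receptor for short-chain fatty acids (1.69), had replicate gaps above their margins. Klhl35 had the largest difference of any member, 1.94, with 2.90 and 3.63 in KO1, 2.00 and 1.23 in KO2, and 0.48 and 0.53 in control. Camk2a, a calcium-dependent kinase best known from neurons, was represented by a transcript model of 7 exons and 530 spliced bases whose 5′ end is marked as not found. Of the 20, 9 overlap another annotated gene and 16 had a control index below the median of all coding genes. In 2 of the 20, Hspb2 and Klhl35, at least 1 library held a ratio of 2 whole numbers no larger than 5. The same held for 12 of all 276 members (4.35%) and for 3.44% of all coding genes.

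At the edge of the rule the separation was negligible. The 3 members with the smallest margins were Osbpl5 (0.0067), Hist1h3a (0.0042) and Zfp981 (0.0026), and the nearest genes outside were Gm47283 (-6.5e-06), Rnf223 (-0.00094) and Hormad2 (-0.0010). Zfp981 had 4.92 and 4.81 in KO1, 4.97 and 5.30 in KO2, and 4.80 and 4.59 in control. A margin above 0.2 left 111 genes and one above 0.5 left 31.

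Members had a lower control index than coding genes at large. Their median was 3.82 against 4.80 over all coding genes, and 191 of the 276 (69.2%) lay at or below 4.80. The share of genes that were members was 3.78% in the lowest decile of control index, 2.23% in the fifth and 1.16% in the highest, with the smallest share, 0.770%, in the seventh. The rule uses the control values, so a low control reading makes membership easier and this pattern is a description. The pattern was read on the values as deposited, where most genes had a lower index in the knockouts. After median centring 1960 genes met the rule, and the part of that general shift in the pattern was not tested. Members with a control index below 0 numbered 14, and 15 lay in the highest decile, such as Zfp791 at 10.1 and 10.8 in KO1, 10.3 and 10.1 in KO2, and 9.43 and 9.37 in control.

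**Figure D3:**
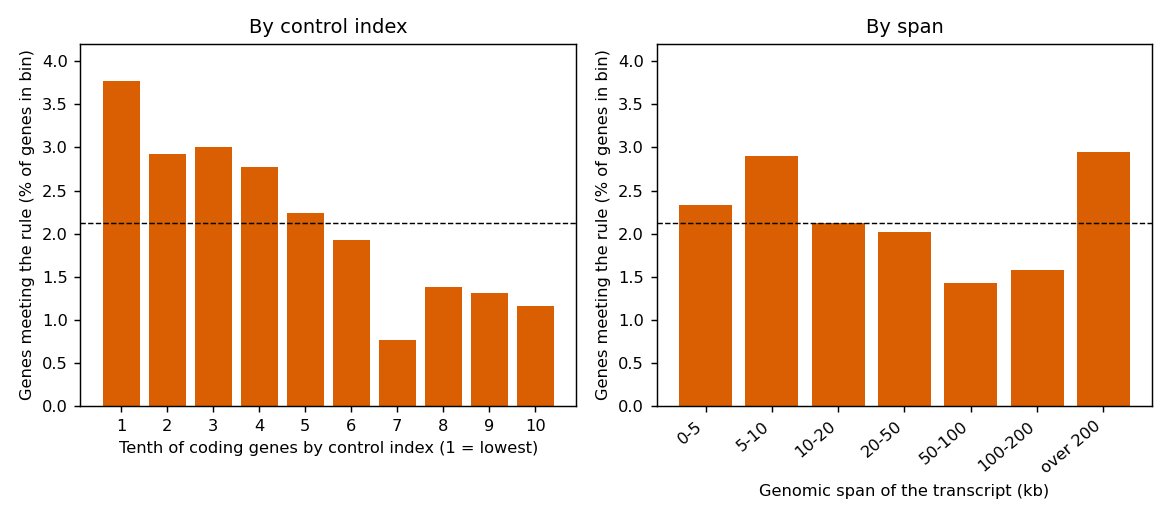
Percentage of coding genes that meet the rule, by decile of control index (left) and by genomic span in kilobases (right), with the share over all coding genes, 2.13%, as a dashed line. The share is 3.78% in the lowest and 1.16% in the highest decile, and by span it is above the line below 10 kb and above 200 kb.

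Members were somewhat shorter, though not at the long end. The median span was 17705.5 bases (95% order-statistic interval 15727 to 21362). Over all coding genes the median was 22386 bases, and for genes with all 4 knockout values below control it was 24978.5. The interval takes genes as independent, though all share the same 6 libraries, so it does not test this difference. After median centring, the 1960 genes that met the rule had a median span of 21567.5 bases, close to that of all coding genes. On the values as deposited, members were 2.91% of genes of 5 to 10 kb, 1.43% of genes of 50 to 100 kb and 2.95% of the 577 genes over 200 kb. The 3 longest were Smyd3, a lysine methyltransferase (566075 bases), Tenm3, a teneurin of neuronal wiring (447009 bases), and Glis3, a zinc finger factor (421227 bases). Tenm3 had 8.10 and 8.08 in KO1, 8.21 and 8.28 in KO2, and 7.54 and 7.56 in control, with a far smaller replicate gap than margin. The 3 shortest, Hist1h3a (534 bases), Rpl9-ps6 (714) and Gm15013 (801), have 1 exon each and Hist1h3a and Rpl9-ps6 have near-identical copies elsewhere, so reads may be shared. Members had a median of 7 exons and 2570 spliced bases, against 8 and 2864 over all coding genes.

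The chosen transcript's start was often not the RefSeq start in members. Of the 212 members with a RefSeq start under the same symbol, 129 (60.8%) had it within 100 bases of the chosen start, against 82.0% of the 10121 coding genes with an entry. Where the RefSeq start was within 100 bases, 1.55% of coding genes were members, and where it was farther away, 4.55% were. This held on both sides of the median control index. Below it, 2.00% of genes with a near RefSeq start and 7.14% of those with a distant one were members, and above it 1.12% and 1.89%. Transcript models whose 5′ end is marked as not found were 6.52% of members (18 genes), against 1.25% of all coding genes, and 11.1% of these 162 models were members. No test was made of these shares, and what sets them was not tested.

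The same genes read from another start mostly did not follow the chosen transcript. Of the members, 122 had 1 distinct coding transcript in the table. Other coding transcripts of members that start within 100 bases of the chosen one met the rule in 67 of 134 cases (50.0%), against 0.649% of such transcripts of the other coding genes; transcripts with the same start can share reads, so this is no separate support. Those that start elsewhere met it in 23 of 304 cases (7.57%), against 7.76% in the other coding genes, and their median difference from control was -0.12 in both sets. Of the 113 members with a coding transcript from another start, 83 had at least 1 such transcript below control on average.

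**Figure D4:**
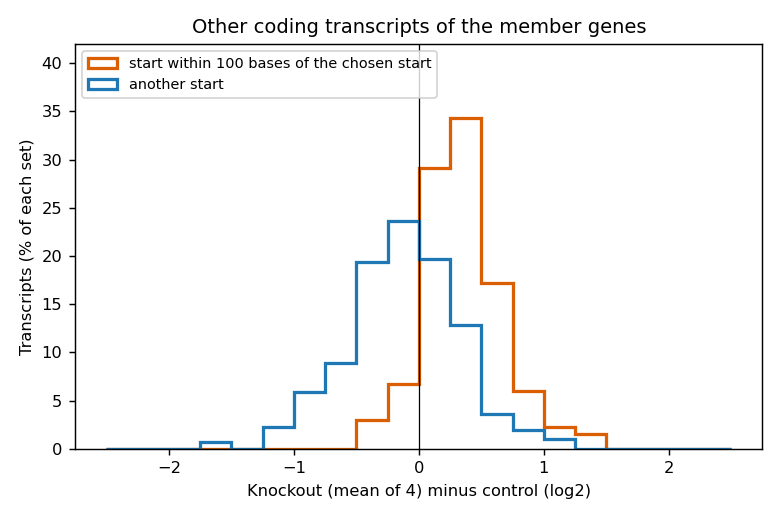
Distribution of the mean of the 4 knockout libraries minus the mean of the 2 control libraries (log2) over other coding transcripts of the member genes, as a percentage of each set. The 134 transcripts that start within 100 bases of the chosen start centre at 0.34, and the 304 that start elsewhere centre at -0.12.

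Plec shows this within 1 gene. Its chosen transcript differed by 1.83, while its 15 other coding transcripts ranged from -1.04 to 0.66, with 10 of them below control and 2 meeting the rule. Prdm9 had a second transcript 22 bases from the chosen start that differed by 1.04, and another, 1017 bases away, at -0.71. For Tmem35b the second transcript, which starts 2355 bases away, had -0.41 and 0.12 in KO1, 0.31 and -0.19 in KO2, and 0.57 and 1.498 in control, so it lay below both controls in all 4 knockout libraries. In Btn2a2, 2 of 3 further transcripts from nearly the same start met the rule.

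Promoters of members were poorer in CpG dinucleotides. Most mouse promoters of widely used genes lie in CpG islands, whereas promoters of tissue-restricted genes often do not. Among genes with a RefSeq start within 100 bases, the window's observed over expected CpG ratio had a median of 0.660 in 129 members and 0.780 in all 8297, and its G+C content was 57.7% and 61.7%. Members were 2.70% of the genes with the lowest quartile of CpG ratio, 1.54% and 1.01% of the next and 0.964% of the highest. The lowest quartile also had a lower control index (median 4.00 against 5.38 in the highest), and the part of that difference in the member shares was not tested.

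Neighbouring genes were a further shared feature in some members. Another gene on the same strand ended within 5 kb upstream of 70 members (25.4%), against 18.8% of all coding genes, and such genes had a low control index in general (median 3.87 against 4.99 without such a neighbour). A divergent gene start within 1 kb was present in 15.2% of members and 17.1% of all coding genes. Overlap with another gene on either strand was found in 152 members (55.1%) and 51.4% of all coding genes, and the 124 members without any overlap were 1.97% of the 6305 genes of that kind.

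Members lay on all chromosomes but Y. Chromosome 7 held the most, 27 of 1048 coding genes (2.58%), and the share ran from 1.10% on chromosome 12 (5 of 453) to 3.19% on chromosome 19 (14 of 439), with 2.35% on X (10 of 425). There were 15 pairs of consecutive members less than 100 kb apart, a count that was not set against gene density and so says nothing about clustering. The pairs named here were chosen after their values were seen. Ffar2 and Ffar1, receptors for short-chain and for longer fatty acids, lie 33.6 kb apart on chromosome 7, where Ffar1 had 1.52 and 2.17 in KO1, 2.00 and 1.12 in KO2, and 0.85 and 0.70 in control. Gm49450 and Tuba1a overlap on the same strand of chromosome 15 (98932137 to 98953703), so their reads may be shared and they may not be separate cases. Stat2 and Ankrd52 on chromosome 10 were 96.4 kb apart.

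**Figure D5:**
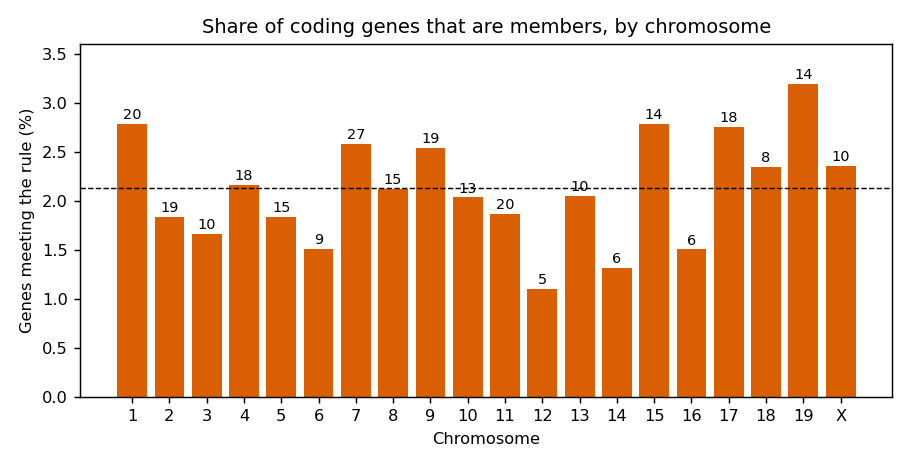
Percentage of coding genes that meet the rule on each chromosome, with the number of members above each bar and the share over all coding genes as a dashed line; chromosome Y, with 6 coding genes and no member, is not drawn. Chromosome 12 has the lowest share, 1.10%, and chromosome 19 the highest, 3.19%.

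Of 37 gene families and pathways listed, 17 held at least 1 member and 20 held none. The lists together held 31 of the 276 members (11.2%) and 1722 of all 12979 coding genes (13.3%), so the members were about as often in a list as coding genes at large. The 386 zinc finger genes of the Zfp, Zscan and Zkscan series held 10 members (2.59%, against 2.13% over all coding genes), among them Zfp300, Zfp771, Zfp791 and Zfp266. The list's median difference was -0.34, against -0.47 over all coding genes. Zfp266 (chr9:20495068-20521417, minus strand) had 7.53 and 7.39 in KO1, 7.51 and 7.64 in KO2, and 6.89 and 6.92 in control, with a narrow spread in each group. Zfp992 and Zfp981 are neighbours on chromosome 4 in a cluster of like genes, where reads of near-identical copies may be shared.

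Genes named for testis and spermatogenesis held 3 members among 56 (5.36%, against 2.13% over all coding genes): Tsga10ip, Tex13b and Tex14, the last a component of the bridges between germ cells. A count of 3 is too small to set this list apart from coding genes at large. Tex14 had 9.10 and 9.27 in KO1, 9.01 and 9.06 in KO2, and 8.83 and 8.52 in control. The list's median was -0.38, against -0.47 over all coding genes. Of its genes, 17 (30.4%) lay below control in all 4 knockout libraries, against 45.3% of all coding genes. Of 13 listed genes of meiosis and the germ line, none was a member and 7 (53.8%) lay below control in all 4 knockout libraries. Prdm9 is not on that list.

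Interferon-stimulated genes held 2 members of 27 (7.41%, against 2.13% over all coding genes), Oas1d and Irf9, and the list's median difference was -0.08, against -0.47 over all coding genes. With 2 members, the share rests on too few genes to set the list apart. Oas1d, of the family that makes the second messenger of antiviral RNA decay, had 1.44 and 1.91 in KO1, 2.81 and 2.91 in KO2, and 1.19 and 0.78 in control. Irf9, the DNA-binding subunit of the complex that interferon activates, had 3.64 and 3.27 in KO1, 3.62 and 3.90 in KO2, and 2.83 and 3.11 in control. The Irf9 transcript overlaps Rnf31 on the same strand, so its values may include those reads. The other Irf9 coding transcripts start 414 bases or more away and differed from control by -0.43, -0.40 and -0.63. The Oas1d values were higher in KO2 than in KO1, while those of Irf9 overlapped between the knockouts. The serpins held 1 member of 14, Serpinb6b, and the chemokines and interleukins 1 of 29, Il34.

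Cytoskeletal families gave Tuba1a, 1 of 16 tubulins (6.25%), and Kif20b and Kif11, 2 of 33 kinesins (6.06%), both motors of cell division. Tuba1a (chr15:98949837-98953703, minus strand), an alpha-tubulin, had 3.86 and 3.83 in KO1, 3.31 and 3.40 in KO2, and 2.67 and 2.83 in control, with small gaps in every group. Kif11 differed by only 0.21, with 6.33 and 6.06 in KO1, 6.03 and 6.21 in KO2, and 5.94 and 5.95 in control. Histones held 2 of 46 (H2afj and Hist1h3a, 4.35%) and cytosolic ribosomal proteins 2 of 82 (Rps13 and Rpl17, 2.44%). Protocadherins, whose transcripts share exons, held 1 of 27 (Pcdhgb7, 3.70%). All these families held 1 or 2 members, too few to set any of them apart from the 2.13% over all coding genes.

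Among regulators, Fto, an m6A and m6Am demethylase, was the sole member of 20 m6A factors. It had 7.57 and 7.92 in KO1, 7.46 and 7.44 in KO2, and 7.25 and 7.32 in control, so its margin of 0.12 was below its replicate gap of 0.35. Other Fto coding transcripts that start 10, 33, 43 and 89 bases away also met the rule, but they can share its reads. Another Fto transcript, which starts 77030 bases away, met the rule with a difference of 1.00 and may share reads further downstream. Lef1, a transcription factor of the Wnt pathway that is listed both there (1 of 27) and among primed and early lineage genes (1 of 11), had 3.41 and 3.95 in KO1, 3.08 and 3.03 in KO2, and 2.53 and 2.79 in control. The cyclins and cyclin-dependent kinases held Cdk8, a kinase of the Mediator complex, as 1 of 33, and single members came from the Tmem series (Tmem35b, 1 of 174) and the ubiquitin-specific proteases (Usp49, 1 of 49). The lists without a member are given beside the 2.13% share over all coding genes, at which a list of 47 genes or fewer would hold about 1 member or none, so most of these counts are near the background. No member came from 225 solute carriers, 75 mitochondrial ribosomal proteins, 49 RNA helicases, 47 proteasome subunits, 34 Pol II pausing and elongation factors, 27 naive pluripotency genes, 22 genes each of glycolysis, Polycomb and imprinting, 21 immediate early genes, 20 p53 targets or 18 heat shock genes. Mkrn3 and Hspb2 are members that the imprinted and heat shock lists do not hold. The lists without a member also included 21 cytochrome P450 genes, 11 MHC genes, 10 Hox genes, 9 genes of X-linked brain and germ line families, 7 keratins, 7 olfactory and vomeronasal receptors and 2 genes of the 2-cell-like state.

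KO1 was also compared with KO2. The rule used these values too, since all 4 had to exceed the controls, so the members' differences between the knockouts are a description and are not independent of how they were chosen. No coding gene, and so no member, passed limma with Benjamini-Hochberg adjustment in it (0 of 12979, or 0%; smallest adjusted p = 0.125), while 2665 coding genes and 31 members had an unadjusted p under 0.05. Among the members, 157 of 276 (56.9%) had a higher mean in KO1 than in KO2, with a median difference of 0.05, against 67.6% and 0.20 over all coding genes. A gene with low KO2 values could not be a member, which by itself lowers the KO1 excess among members, so nothing is read from this contrast. Of the 276 members, 19 (6.88%) had such a p and were higher in KO1, against 2206 of all 12979 coding genes (17%). Another 12 members (4.35%) were higher in KO2, against 459 of all coding genes (3.54%).

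The members with the smallest p in this comparison, 3 in each direction, are given as values only. Invs, or inversin, a ciliary protein that sets left-right asymmetry, had 4.21 and 4.36 in KO1 and 5.86 and 5.83 in KO2, with 3.68 and 3.85 in control; KO1 minus KO2 was -1.56 ± 0.17 (SE), with a limma adjusted p of 0.125. Phb, or prohibitin of the inner mitochondrial membrane, had 3.55 and 3.63 in KO1 and 4.56 and 4.69 in KO2, with 3.51 and 3.42 in control. In these genes the KO1 values stood closer to control than the KO2 values. Klhl13, an adaptor of a ubiquitin ligase, showed the reverse order, with 9.27 and 9.52 in KO1 and 8.31 and 8.06 in KO2, and 7.54 and 7.48 in control. Mtg2 and Klhl35 were also higher in KO1, by 1.01 ± 0.20 and 1.65 ± 0.36 (SE), and Serpinb6b was higher in KO2, at -1.46 ± 0.28 (SE).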

How the data were processed

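The mNET-seq escaping index was deposited by the authors as log2 values, with 68473 Ensembl transcripts in rows and 6 libraries in columns. The submitters' processing notes name HISAT2 2.1.0, featureCounts, Trimmomatic 0.38, CASAVA and the mm10 build. How each was set, whether strand was used and how the index was windowed is not given in the sources used here. Ratios of small whole numbers were looked for (within 1e-09) after taking off an offset, set here at 0.5 times each library's smallest linear value. Read depth is unknown, so no counting interval is given.

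Identifiers were matched without version to GENCODE M21 (68397 matched, 76 did not), giving 12979 genes, by largest genomic span, then spliced length. Values were used as deposited, without a pseudocount or filter. Members and gene lists were chosen with earlier results of these data known. RefSeq promoter windows (GRCm38.p6) were matched by symbol.

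KO1 was compared with KO2 with limma 3.58.1 in R 4.3.3 (3 groups fitted together, variance trend, Benjamini-Hochberg over 12979 genes, threshold 0.05, two-sided). The fit was also run on simulated data, with results not given here. Other comparisons are descriptions with Python 3.11.15, pandas 2.3.3 and numpy 2.4.6. Named genes were the 20 largest margins, up to 4 members a list, the 3 nearest the threshold on each side, the 3 smallest p per direction in KO1 against KO2 and the longest and shortest members; others are marked. Alternatives covered the transcript choice, scaling, filters, pseudocounts of 0.1 and 1, margins, replicates and a replicate block.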

Additional observations from a re-analysis of the deposited data

How the results depend on the processing

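No coding gene and no member passed in KO1 against KO2 (limma, adjusted p under 0.05) under any of the 18 alternatives run, the replicate block included, which gave 0 genes. The fit had 3 residual degrees of freedom and a smallest adjusted p of 0.125, so these zeros are no sign of stability, and in the 4 fits that left a knockout with 1 library, that library was assumed to vary like the other groups. The numbers did not pair the libraries, as replicate differences correlated at 0.00716 between KO1 and KO2, 0.00143 between KO1 and control and -0.00910 between KO2 and control. In what follows, the difference is the median of knockout minus control over the members found under a setting, and the reference values are 276 members, 0.55 for the difference, 3.82 for the median control index, 17705.5 bases for the span and 0.05 for KO1 minus KO2.

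Median centring gave 1960 members, with a difference of 0.59, a control index of 4.22, a span of 21567.5 bases and KO1 minus KO2 of -0.0183. Quantile normalization gave 1970, 0.59, a control index of 4.16 and KO1 minus KO2 of -0.0206. Both scalings move the control values, so these indices do not compare with the 4.80 over all coding genes as deposited. The span after median centring was close to the 22386 bases over all coding genes. With the longest spliced transcript per gene there were 290 members, 244 of them shared, with a control index of 3.76 and KO1 minus KO2 of 0.0225. With the mean of a gene's distinct coding transcripts there were 269, of which 181 were shared (65.6% of the members, 67.3% of the 269), with a difference of 0.47 and a control index of 3.29. Without genes that overlap another there were 124 members, with a control index of 3.61 and KO1 minus KO2 of 0.0810. With chosen starts within 100 bases of a RefSeq start, an alternative chosen after seeing the data, there were 129. The control index was 3.87 for a mean ratio of at least 1, 3.94 without ratios of small whole numbers and 3.92 with a pseudocount of 1, where the difference was 0.50. A margin above 0.2 left 111 members (difference 0.90, control index 3.58), and one above 0.5 left 31 (1.24, 2.58, span 10530 bases).

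Leaving out each replicate in turn gave 370 to 773 members, a difference of 0.53 to 0.58, a control index of 3.81 to 4.07, a span of 17661 to 19797 bases and KO1 minus KO2 of -0.0239 to 0.10. A library fewer makes the rule easier to meet, so these counts are larger by construction. Apart from the counts under left-out replicates, the cause of these shifts was not tested. With 2 libraries a group and unknown depth, a single member's place in the set rests on 6 values.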

Other observations

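Some members outside the lists belong to pathways that the lists touch, and they are given as values chosen after they were seen. Stat2, which joins Irf9 in the complex that interferon activates, had 5.83 and 5.81 in KO1, 5.98 and 6.11 in KO2, and 5.73 and 5.44 in control, a margin of 0.08. Stat6, the transcription factor of interleukin-4 signalling, had 5.34 and 5.30 in KO1, 5.09 and 4.77 in KO2, and 4.21 and 4.45 in control. Its margin of 0.319 was not above its widest replicate gap of 0.320. Another Stat6 coding transcript, which starts 16 bases away, differed by 0.0087 and did not meet the rule. The list of Pol II pausing and elongation factors held no member among 34 genes, so the following 4 genes are single cases and not a group. In that list 14 genes (41.2%) lay below control in all 4 knockout libraries, against 45.3% of all coding genes. The 4 genes are Tcea3, an elongation factor of the TFIIS family, which differed by 0.46, Med22, a Mediator subunit (0.45), Gtf2f1, a subunit of TFIIF (0.24), and Polr2c, a core subunit of RNA polymerase II (0.15). Polr2c had 6.65 and 6.67 in KO1, 6.61 and 6.69 in KO2, and 6.56 and 6.44 in control, so its groups are separate by 0.05 only. Polr2c coding transcripts that start 68 and 114 bases away differed by -0.079 and 0.107, and neither met the rule.

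Genes with a Gm number or a Rik symbol, which have no established function name, were 19 of the 276 members and 3.82% of the 498 such coding genes were members, against 2.06% of the 12481 others. Their control index was also lower, with a median of 3.33 against 4.85.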
